A study of Homo sapiens with 6 samples.

Results

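A set of 10 enzymes and chaperones that modify and crosslink collagen were examined in U251 glioblastoma cells with and without CRISPR-Cas9 targeting of NUAK2. They were chosen by name for their function, with earlier results of these data known, and are the prolyl 4-hydroxylase subunits P4HA1, P4HA2 and P4HA3, the lysyl hydroxylases PLOD1, PLOD2 and PLOD3, the chaperone SERPINH1 and the lysyl oxidases LOX, LOXL1 and LOXL2. All 10 were listed among the 28395 genes of the count table, and all 10 were among the 14873 genes with enough counts to be tested. At an edgeR adjusted p under 0.05, P4HA1, PLOD3, LOX and LOXL1 were higher in NUAK2-CR cells and none of the 10 was lower. PLOD2 passed as lower only when WT replicate 1 was left out. LOXL1 alone among the 10 changed by more than 1 on the log2 scale.

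U251 (labelled U251MG) is an established human glioblastoma line, and the series holds 3 WT and 3 NUAK2-CR libraries of RNA-sequencing. NUAK2 is a kinase of the AMPK-related family. The study's methods describe NUAK2-CR lines as clones grown from single sorted cells that carried the NUAK2 guide in a GFP and an mCherry vector. No clone is named in the labels of the 3 NUAK2-CR libraries, whereas the legend of the study's enrichment analysis names a single clone, so an effect of NUAK2 targeting and a trait of that clone cannot be told apart. Nothing in the labels says that WT cells received a vector, or that the 3 libraries of a group came from separate cultures, so every p-value measures the spread between these libraries, which may be technical.

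Counts on genes totalled 35310946 to 55574081 in the WT libraries and 29648445 to 33776712 in the NUAK2-CR libraries. WT replicate 1 was the deepest. WT replicates 1, 2 and 3 had 1926, 1457 and 1580 normalized counts of NUAK2, against 799, 961 and 849 in the NUAK2-CR libraries, and its log2 fold change was -0.93 (SE 0.11, edgeR adjusted p = 1.8e-05). The 2 groups did not overlap, and reads of the gene remained in every NUAK2-CR library. The labels give the tissue as brain and the cells as a glioblastoma astrocytoma. Of 11 astroglial and neural stem markers, 9 had a mean of at least 100 normalized counts, OLIG2 was at 0 and AQP4 near it, and the summed level ran from 337033 to 374021 in WT and from 152161 to 159457 in NUAK2-CR. In this list 1 marker was higher and 7 lower in NUAK2-CR, beside 26.3% and 28.2% of all tested genes. Immune markers were close to 0 in both groups, with sums of 8.60 to 28.0 in WT and 3.81 to 9.65 in NUAK2-CR. Epithelial markers summed to 6023 to 6737 in WT and 6778 to 7369 in NUAK2-CR. Neuronal markers summed to 15440 to 18334 and 12669 to 13382, and endothelial markers to 227 to 308 and 186 to 201, in the same order. Of 7 fibroblast and mural markers, which mark cells that make much collagen, 4 were higher and 3 lower in NUAK2-CR, and their sum was 20556 to 25557 in WT and 18508 to 20136 in NUAK2-CR. Most of that sum was THY1, with means of 21988 in WT and 15101 in NUAK2-CR. ACTA2 rose from 93.0 to 2138, PDGFRB from 861 to 1763, DCN from 2.71 to 201 and LUM from 6.24 to 33.1. THY1, PDGFRA and RGS5 changed by -0.54, -2.54 and -0.96 on the log2 scale. The part of these marker shifts in the results was not tested. In bulk RNA, fewer cells that express a gene and less RNA per cell cannot be told apart.

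Collagen chains are modified while they are made in the endoplasmic reticulum. Prolyl 4-hydroxylases add the hydroxyl groups that hold the triple helix together, lysyl hydroxylases prepare lysines for glycosylation and crosslinking, and SERPINH1, also called HSP47, binds the folded helix on its way to the Golgi. After secretion, lysyl oxidases convert lysines into the reactive aldehydes from which covalent crosslinks form, the step that stiffens the extracellular matrix (ECM) around glioma and other tumor cells.

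The question for each enzyme was whether its transcript level differed between NUAK2-CR and WT. At an adjusted p under 0.05 in edgeR's quasi-likelihood test, 4 of the 10 genes were higher and 0 were lower, and 6 did not pass. Among all tested genes 54.5% passed, 26.3% higher and 28.2% lower, so the 10 did not pass more often than tested genes in general. The median log2 fold change of the 10 was 0.20, against -0.01 over all tested genes, and a median absolute log2 fold change of 0.20, against 0.37. LOXL1 was the 1 gene of the 10 past an absolute log2 fold change of 1, a size reached by 13.9% of tested genes (6.91% higher), and 0 of the 10 passed 2, as 4.72% of tested genes did. Groups did not overlap for 5 of the 10 genes, all of them higher in NUAK2-CR, where 61.4% of all tested genes did not overlap and 29.8% were higher without overlap.

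**Figure D1:**
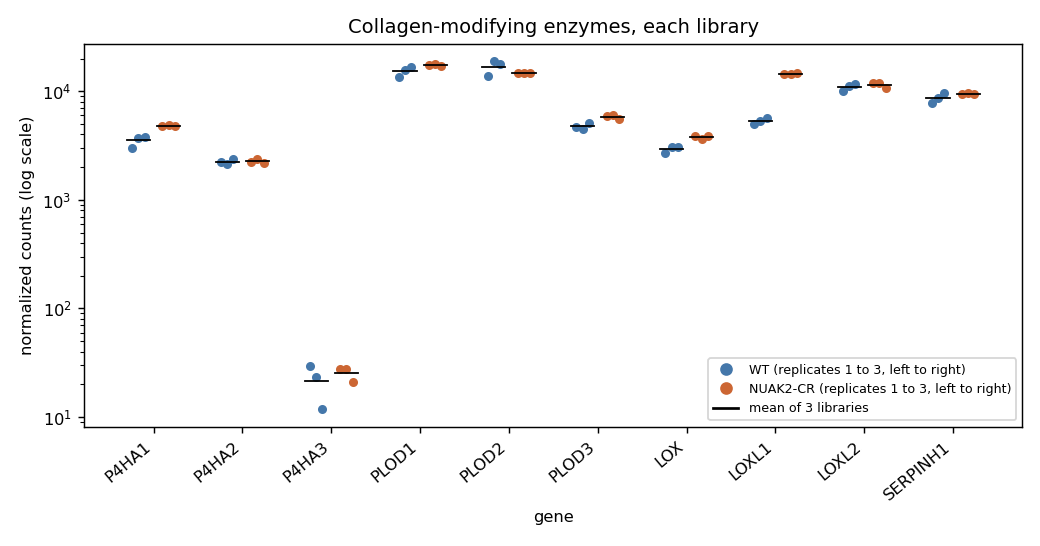
Normalized counts (log scale, not corrected for gene length) of the 10 collagen-modifying genes in each library, with WT in blue, NUAK2-CR in orange and a line at the mean of 3 libraries. The NUAK2-CR libraries of LOXL1 sit between 14294 and 14837, all above the WT libraries, whereas the points of P4HA2, P4HA3, PLOD2, LOXL2 and SERPINH1 overlap.

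Prolyl 4-hydroxylase is a tetramer in which a catalytic alpha subunit, encoded by P4HA1, P4HA2 or P4HA3, pairs with the disulfide isomerase P4HB. P4HA1 (gene 5033), the main alpha subunit of most cells, lies on the minus strand of GRCh38 chromosome 10 from 73007217 to 73096866. WT replicates 1, 2 and 3 had 3034, 3740 and 3803 normalized counts of P4HA1, against 4753, 4876 and 4778 in NUAK2-CR replicates 1 to 3. Every NUAK2-CR library was above every WT library, and WT replicate 1 was the lowest of all. The mean rose from 3526 ± 427 to 4802 ± 65.0 (SD, n = 3 each), a log2 fold change of 0.45 (SE 0.09, edgeR adjusted p = 0.000762). Because hypoxia-inducible factors are known regulators of P4HA1, PLOD2 and LOX, the core of their binding site, ACGTG on either strand, was looked up in RefSeq promoter windows (GRCh38.p14, the 250 bases before each start). It was present in 18.5% of 35116 windows and in 3 of the 8 of these genes that had a window, P4HA1, PLOD2 and LOX. Each of the 8 was given 1 window, at its outermost RefSeq start. The 35116 windows were all counted and may hold several per gene, here and for the other motifs. P4HA3 and LOXL2 had no entry. The match in P4HA1 began 86 bases before the start, at chr10:73096935-73096964 on the minus strand, and is shown in capitals.
P4HA1: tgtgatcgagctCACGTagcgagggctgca

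P4HA2 (gene 8974), on the minus strand of chromosome 5 from 132190147 to 132227853, encodes the alpha subunit best known from cartilage and bone. It was at 2227, 2125 and 2385 normalized counts in WT and at 2249, 2382 and 2199 in NUAK2-CR, in replicate order. The groups overlapped throughout their range. The log2 fold change was 0.02 (SE 0.07, adjusted p = 0.834 in edgeR).

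P4HA3 (gene 283208), a less abundant alpha subunit on the minus strand of chromosome 11 from 74250146 to 74311640, was close to the limit of detection. WT replicates 1, 2 and 3 had raw counts of 44, 24 and 11, and NUAK2-CR replicates 1 to 3 had 22, 23 and 19, or 21.4 ± 8.83 and 25.5 ± 4.03 normalized counts (SD, n = 3 each). WT replicates 1 and 3 lay above and below all NUAK2-CR libraries. With a log2 fold change of 0.22, an SE of 0.41 and an edgeR adjusted p of 0.679, a difference was not detectable in these libraries, and the value ran from -0.05 to 0.53 with each library left out. P4HA3 overlaps PPME1, which had a log2 fold change of -0.01 (adjusted p = 0.89 in edgeR).

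The make-up of the family was compared after division by the length of the canonical transcript (normalized counts per kb). P4HA1 made up 71.7% ± 2.71 of the alpha subunits in WT and 77.4% ± 0.559 in NUAK2-CR (SD, n = 3 each). P4HA2 went from 27.7% ± 2.55 to 22.1% ± 0.501, and P4HA3 stayed under 1% in each library. The sum of the 3 was 1789 ± 160 normalized counts per kb in WT and 2263 ± 44.3 in NUAK2-CR, without overlap. Within each library, the log2 ratio of P4HA2 to P4HA1 counts was -0.45, -0.82 and -0.67 in WT and -1.08, -1.03 and -1.12 in NUAK2-CR, a difference of -0.43 (SE 0.11). The groups did not overlap, which gives an exact two-sided permutation p of 0.1, the smallest that 3 against 3 libraries allow, and 0.15 after adjustment over the 9 ratios computed. Exact permutation of 3 against 3 libraries cannot go below 0.05, so no ratio can pass that threshold here.

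**Figure D2:**
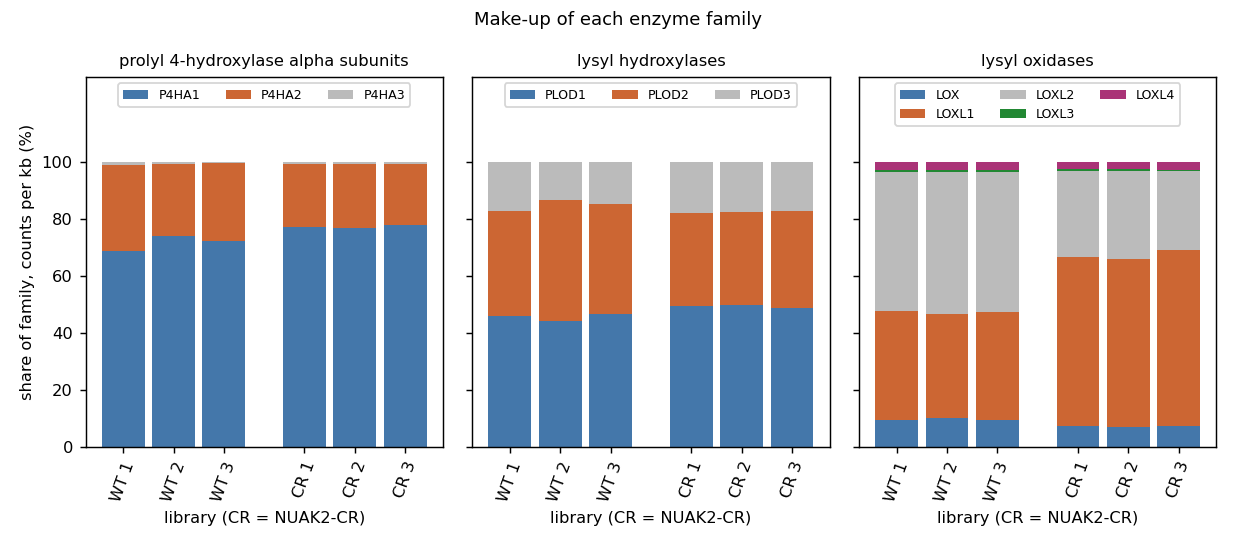
Share of each gene in the summed normalized counts per kb of its family (percent, stacked to 100), with 1 bar for each of the 3 WT and 3 NUAK2-CR libraries. LOXL1 occupies 37.7% of the lysyl oxidase bars on average in WT and 60.0% in NUAK2-CR, and P4HA1 and PLOD1 take somewhat larger shares in NUAK2-CR.

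Lysyl hydroxylases act on collagen lysines at different places in the chain. PLOD1 (gene 5351), which hydroxylates lysines of the helix, lies on the plus strand of chromosome 1 from 11934717 to 11975537. WT replicates 1, 2 and 3 had 13523, 15629.6 and 16823 normalized counts of PLOD1, against 17415, 17915 and 16977 in NUAK2-CR replicates 1 to 3. All NUAK2-CR libraries were above all WT libraries, WT replicate 3 and NUAK2-CR replicate 3 being the closest. The log2 fold change of 0.19 (SE 0.08) did not pass in edgeR's quasi-likelihood test (adjusted p = 0.0700) and passed with DESeq2 (adjusted p = 0.0410) and in edgeR without WT replicate 3 (0.26, adjusted p = 0.0255). Around PLOD1, the median over the 100 nearest tested genes was -0.31 on the log2 scale. Less that median, itself taken relative to the median of all tested genes (-0.01), PLOD1 was at 0.48.

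PLOD2 (gene 5352), which hydroxylates lysines of the telopeptides and so sets the kind of crosslink, lies on the minus strand of chromosome 3 from 146069440 to 146161184. It was at 13732, 18859 and 17662 normalized counts in WT and at 14613, 14787 and 14861 in NUAK2-CR, in replicate order. WT replicate 1 was below and the other two WT libraries above all NUAK2-CR libraries. The mean was 16751 ± 2682 in WT and 14754 ± 128 in NUAK2-CR (SD, n = 3 each), with a log2 fold change of -0.18 (SE 0.10, adjusted p = 0.141 in edgeR). Without WT replicate 1 the log2 fold change was -0.30, with an edgeR adjusted p of 0.000179, so the call for PLOD2 rested on that library. Its promoter window held ACGTG on either strand at 2 places, 200 and 146 bases before the start, at chr3:146161367-146161396 and chr3:146161313-146161342 on the minus strand, with the match in capitals.
PLOD2, 200 bases before the start: cgtgagcctccaCACGTagccgcaggcagc
PLOD2, 146 bases before the start: caaacagtccagACGTGgggcccaggaggg

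PLOD3 (gene 8985), which besides hydroxylating lysines also transfers glucose to the modified residues, lies on the minus strand of chromosome 7 from 101205984 to 101217581. Normalized counts were 4727, 4487 and 5053 in WT and 5959, 5997 and 5598 in NUAK2-CR, in replicate order. The groups did not overlap. PLOD3 rose 1.23-fold, from 4756 ± 284 to 5851 ± 220.5 (SD, n = 3 each), with a log2 fold change of 0.30 (SE 0.07, edgeR adjusted p = 0.00291). The 100 nearest tested genes had a median of 0.12, and less that median, taken in the same way, PLOD3 was at 0.17.

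Summed per kb, the 3 lysyl hydroxylases were at 11304 ± 1239 normalized counts in WT and 11868 ± 219 in NUAK2-CR (SD, n = 3 each), and the groups overlapped. The balance between them differed more than the sum. PLOD1 went from 45.6% ± 1.19 to 49.4% ± 0.420 of the family and PLOD3 from 15.0% ± 1.80 to 17.5% ± 0.401, whereas PLOD2 went from 39.4% ± 2.71 to 33.2% ± 0.746. The within-library log2 ratio of PLOD1 to PLOD2 was 0.36 higher in NUAK2-CR (SE 0.08) and that of PLOD3 to PLOD2 was 0.47 higher (SE 0.16). Neither ratio overlapped between the groups, and each had an exact two-sided permutation p of 0.1 (adjusted 0.15).

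SERPINH1 (gene 871), the collagen-specific chaperone of the endoplasmic reticulum, lies on the plus strand of chromosome 11 from 75562253 to 75572783. It was at 7779, 8664 and 9657 normalized counts in WT and at 9374, 9677 and 9535 in NUAK2-CR, in replicate order. WT replicate 3 lay among the NUAK2-CR libraries and the other two WT libraries below them. The log2 fold change was 0.13 (SE 0.08, adjusted p = 0.184 in edgeR), and it passed without WT replicate 3 (0.21, edgeR adjusted p = 0.0427). SERPINH1 is a known target of heat shock factor, and its promoter window was the 1 of 8 that held a heat shock element (TTC, GAA and TTC, spaced by 2 bases each, on either strand), which 0.441% of all windows held. The match, in capitals, began 76 bases before the start, at chr11:75562169-75562198 on the plus strand.
SERPINH1: ttccaactTTCCAGAAGTTTCtcgggacgg

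The lysyl oxidases held the largest change of the 10 genes. LOX (gene 4015), the founding member of the family, lies on the minus strand of chromosome 5 from 122063195 to 122078259. It was at 2674, 3094 and 3074 normalized counts in WT and at 3899.5, 3606 and 3850.1 in NUAK2-CR, in replicate order. All NUAK2-CR libraries were above all WT libraries. LOX rose 1.29-fold, from 2947 ± 237 to 3785 ± 157 (SD, n = 3 each), with a log2 fold change of 0.36 (SE 0.08, edgeR adjusted p = 0.00141). It overlaps SRFBP1, whose log2 fold change was 0.11 (adjusted p = 0.41 in edgeR). The promoter window of LOX held ACGTG on either strand at 4 places, of which the farthest from the start and the nearest, 185 and 42 bases before it, are shown with the match in capitals, at chr5:122078427-122078456 and chr5:122078284-122078313 on the minus strand.
LOX, 185 bases before the start: gctccctgtgcaACGTGtctggggggagga
LOX, 42 bases before the start: gtaactttgcaaACGTGccagaaagtttaa

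LOXL1 (gene 4016), an oxidase known for crosslinking elastin as well as collagen, lies on the plus strand of chromosome 15 from 73926462 to 73952136. WT replicates 1, 2 and 3 had 4999.8, 5278 and 5696 normalized counts of LOXL1, against 14566, 14294 and 14837 in NUAK2-CR replicates 1 to 3. The lowest NUAK2-CR library was well above the highest WT library, and the 3 NUAK2-CR libraries differed little among themselves. LOXL1 rose 2.74-fold, from 5325 ± 350.5 to 14565 ± 272 (SD, n = 3 each), with a log2 fold change of 1.45 (SE 0.07, edgeR adjusted p = 6.49e-09). The 100 nearest tested genes had a median of -0.08. The antisense gene LOXL1-AS1 (gene 100287616, chromosome 15 from 73917468 to 73928248) overlaps the start of LOXL1. It was at 1085, 1111 and 1052 normalized counts in WT and at 3701, 3822 and 4041 in NUAK2-CR, and rose by 1.83 on the log2 scale (SE 0.07, edgeR adjusted p = 9.72e-10). The library kit marks strand. The study states default parameters for the counting step and names no strand setting. Reads in the stretch that both genes cover could therefore not be assigned with certainty here.

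LOXL2 (gene 4017), which crosslinks collagen IV of basement membranes, lies on the minus strand of chromosome 8 from 23296897 to 23404120. It was at 10098, 11301 and 11789 normalized counts in WT and at 11909, 11873 and 10636 in NUAK2-CR, in replicate order. WT and NUAK2-CR libraries were mixed in rank. The log2 fold change was 0.05 (SE 0.08, adjusted p = 0.593 in edgeR).

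**Figure D3:**
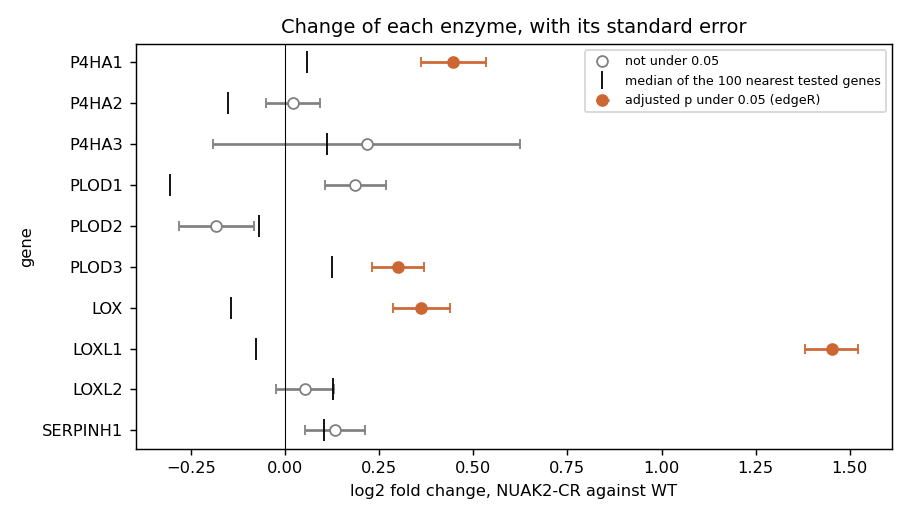
Log2 fold change of each gene in NUAK2-CR against WT (x axis) with its standard error as a horizontal bar, and a black tick at the median of the 100 nearest tested genes. Filled orange points had an edgeR adjusted p under 0.05, and LOXL1 at 1.45 lies apart from P4HA1, LOX and PLOD3 at 0.45, 0.36 and 0.30.

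With LOXL3 and LOXL4 included, the 5 lysyl oxidases summed to 6026 ± 429 normalized counts per kb in WT and 10349 ± 118 in NUAK2-CR (SD, n = 3 each). LOXL1 accounted for 37.7% ± 0.744 of the sum in WT and 60.0% ± 1.42 in NUAK2-CR. LOXL2 went from 49.3% ± 0.497 to 29.8% ± 1.68 and LOX from 9.63% ± 0.305 to 7.21% ± 0.271, although neither gene fell. In its ratio to LOX within each library, LOXL1 was at 0.90, 0.77 and 0.89 on the log2 scale in WT and at 1.90, 1.99 and 1.95 in NUAK2-CR. The difference of 1.09 (SE 0.05) did not overlap between groups, and the exact two-sided permutation p was 0.1 (adjusted 0.15). The log2 ratio of LOXL2 to LOX was lower in NUAK2-CR by -0.31 (SE 0.08), with the same exact permutation p of 0.1 (adjusted 0.15).

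Per kb of canonical transcript, the order of levels in WT was PLOD1 at 5149.6 ± 561, PLOD2 at 4468 ± 715, SERPINH1 at 4227 ± 457, LOXL2 at 2973 ± 234 and LOXL1 at 2269.6 ± 149 normalized counts per kb (SD, n = 3 each). PLOD3 at 1686 ± 101, P4HA1 at 1285 ± 156, LOX at 581 ± 46.7, P4HA2 at 494 ± 28.8 and P4HA3 at 9.49 ± 3.92 followed. The ranges of PLOD1 and PLOD2 overlapped, as did those of PLOD2 and SERPINH1, and no other neighbours in the WT order did. In NUAK2-CR, LOXL1 moved from rank 5 to rank 1, at 6209 ± 116 normalized counts per kb, ahead of PLOD1 at 5859 ± 158, SERPINH1 at 4629.9 ± 73.8 and PLOD2 at 3935 ± 34.0. LOXL2, PLOD3, P4HA1, LOX, P4HA2 and P4HA3 kept their order after them, and no neighbours overlapped.

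The spread between libraries was wider in WT. The coefficient of variation (CV, the SD as a percent of the mean) was larger in WT than in NUAK2-CR for 10 of the 10 genes, against 61.3% of all tested genes. It ran from 5.84% to 41.3% in WT and from 0.865% to 15.8% in NUAK2-CR, with medians of 9.42% and 3.23%. The medians over all tested genes were 9.77% and 6.87%. WT replicate 1 was the lowest WT library for 7 of the 10 genes, which was so for 37.7% of all tested genes. The part of depth, which was highest in that library, was not tested here.

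The genes most like the 3 largest changes were sought among 12057 genes that averaged 100 or more normalized counts, by the root mean square difference of centred log2 normalized counts over the 6 libraries. For LOXL1 they were SLC43A3 (difference 0.0282, log2 fold change 1.50), PTPRE (0.0489 and 1.44) and CCDC71L (0.0504 and 1.48). For P4HA1 they were MMUT (0.0264 and 0.42), FADS1 (0.0290 and 0.47) and PIGT (0.0294 and 0.44). For LOX they were EPC2 (0.0136 and 0.36), DNAJB6 (0.0278 and 0.35) and CHSY1 (0.0281 and 0.40). The 6 libraries fall into 2 groups, so the measure itself selects genes with a fold change close to that of the enzyme. The likeness of the fold changes is therefore not a separate result.

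P4HB, which the alpha subunits need as a partner and which also works alone as protein disulfide isomerase, went the other way from P4HA1. It was at 57361, 61939.5 and 67679 normalized counts in WT and at 40275, 42729 and 40762 in NUAK2-CR, and its log2 fold change was -0.60 (SE 0.07, edgeR adjusted p = 2.38e-05). All NUAK2-CR libraries were below all WT libraries. The log2 ratio of the summed alpha subunits to P4HB was -3.44, -3.39 and -3.45 in WT and -2.52, -2.55 and -2.54 in NUAK2-CR. The difference of 0.89 (SE 0.02) was large against the spread within groups, with an exact two-sided permutation p of 0.1 (adjusted 0.15). Per kb, P4HB remained far above its alpha subunits, at 25575 ± 2121 in WT and 16929 ± 533 in NUAK2-CR (SD, n = 3 each).

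**Figure D4:**
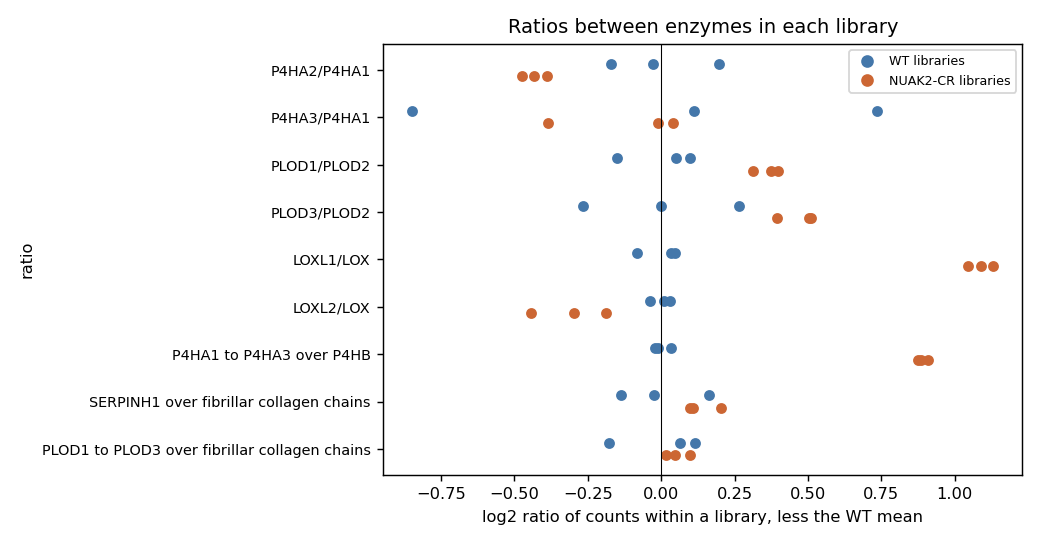
Log2 ratios of counts within each library, less the WT mean of that ratio (x axis), for the 9 ratios computed, with WT in blue and NUAK2-CR in orange. The ratios of LOXL1 to LOX and of the alpha subunits to P4HB are 1.09 and 0.89 higher in NUAK2-CR, and the ratios to the fibrillar collagen chains overlap between groups.

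Other hydroxylases of collagen and of other proteins were split in direction. List counts here and below are to be read beside the 26.3% higher and 28.2% lower among all tested genes. Of 6 genes listed for the prolyl 3-hydroxylase family and its partners, 3 were higher and 2 lower, with a median log2 fold change of 0.18. CRTAP, a noncatalytic subunit of the P3H1 complex, rose from 8819 to 12827 normalized counts (log2 fold change 0.54, edgeR adjusted p = 0.000254). In the same complex, the catalytic P3H1 changed by -0.42 on the log2 scale and the cyclophilin PPIB by -0.35. P3H3 rose by 0.42. P3H2 passed narrowly with 0.24 (edgeR adjusted p = 0.0421) and lost its call in 6 alternatives, with 0.17 (adjusted p = 0.191) when NUAK2-CR replicate 2 was left out. P3H4 had 0.12 (edgeR adjusted p = 0.144). Of 6 genes for the shared subunit and the hydroxylases of other proteins, 5 were tested, 1 was higher and 3 lower, with a median of -0.33. Besides P4HB, the oxygen sensors EGLN3 and EGLN1 fell by 1.71 and 0.33 on the log2 scale, P4HTM, a membrane-bound prolyl hydroxylase, rose by 0.57, and HIF1AN had -0.05 (edgeR adjusted p = 0.596). EGLN2 had too few counts to be tested.

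Both glycosyltransferases that add galactose to the hydroxylysines made by the PLOD enzymes rose. COLGALT2 went from 1743 ± 177 to 4831 ± 93.9 normalized counts (SD, n = 3 each), with a log2 fold change of 1.47 (SE 0.08, edgeR adjusted p = 1.95e-08), a size close to that of LOXL1. COLGALT1 rose by 0.31 on the log2 scale (edgeR adjusted p = 0.00178).

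Of 6 other crosslinking enzymes, 4 were tested, 2 were higher and 0 lower (26.3% and 28.2% of all tested genes), with a median log2 fold change of 0.51. LOXL4 rose from 572 ± 32.4 to 922 ± 42.7 normalized counts (log2 fold change 0.69, SE 0.09, edgeR adjusted p = 3.32e-05). The transglutaminase TGM2, which links glutamine to lysine in matrix proteins, rose by 1.38 (SE 0.12, edgeR adjusted p = 1.12e-06). LOXL3 had 0.33 (edgeR adjusted p = 0.103), and 0.22 without NUAK2-CR replicate 2. TGM1, at about 20.9 normalized counts in WT and 13.1 in NUAK2-CR, had -0.73 (edgeR adjusted p = 0.307), and values from -1.59 without NUAK2-CR replicate 1 to -0.29 without NUAK2-CR replicate 3. TGM3 and F13A1 had too few counts to be tested.

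Of 15 folding partners of procollagen in the endoplasmic reticulum, 4 were higher, 8 were lower and 3 did not pass, with a median log2 fold change of -0.33, beside 26.3% higher and 28.2% lower among all tested genes. With each library left out, 11 to 14 of the 15 passed. The peptidyl-prolyl isomerases FKBP9, FKBP10 and FKBP7 rose by 1.21, 0.91 and 0.84 on the log2 scale. FKBP10 is known to act with PLOD2 on telopeptide lysines. The general chaperones HSPA5 and CANX and the HSPA5 exchange factor SIL1 fell by 0.96, 0.82 and 0.73. Of 15 genes for procollagen export, 5 were higher and 4 lower (median 0.09). KDELR3, SAR1A and KDELR1 rose by 0.46, 0.39 and 0.34, and KLHL12, SAR1B and SEC13 fell by 0.45, 0.34 and 0.24, of which SEC13 did not pass (-0.20 each time) when WT replicate 3 or either of NUAK2-CR replicates 1 and 3 was left out.

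Among 8 propeptidases and enhancers, which trim procollagen outside the cell, 4 were higher and 3 lower (median 0.41). Of all tested genes, 26.3% were higher and 28.2% lower. ADAMTS14, ADAMTS2, TLL1 and PCOLCE rose by 2.63, 1.43, 0.86 and 0.74 on the log2 scale. TLL2, PCOLCE2 and BMP1 fell by 4.40, 1.59 and 0.39, of which BMP1, also the activator of LOX, was the most abundant by count with 5759 normalized counts in WT and 4400.3 in NUAK2-CR. TLL2 fell from 203 ± 41.8 to 9.69 ± 4.82 (SD, n = 3 each). ADAMTS3 had 0.08 (edgeR adjusted p = 0.835).

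Hydroxylases need ascorbate and iron, and lysyl oxidases need copper. Of 8 transporters of these cofactors, 7 were tested, 2 were higher and 1 lower (26.3% and 28.2% of all tested genes), with a median of 0.07. The ascorbate transporter SLC23A2 rose by 0.81 on the log2 scale (edgeR adjusted p = 4.31e-06) and SLC39A14, a transporter of zinc and iron, by 0.31 (0.25 without NUAK2-CR replicate 3, where it did not pass). ATP7A, which loads copper onto lysyl oxidases, had -0.06 (edgeR adjusted p = 0.702) while its homolog ATP7B fell by 0.89, and SLC31A1, TFRC and SLC39A13 had 0.07, 0.08 and -0.02 without passing. SLC23A1 had too few counts to be tested.

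The substrates of these enzymes differed in composition between the groups while their sum overlapped. The fibrillar collagen chains together had 111293 ± 1743 normalized counts in WT and 111340.2 ± 4984 in NUAK2-CR (SD, n = 3 each), and the groups overlapped. Of 11 chains 10 were tested, 3 were higher and 5 lower (26.3% and 28.2% of all tested genes), with a median of -0.27. COL1A2 rose by 0.78 on the log2 scale, from 34353 to 58927 normalized counts, while COL1A1, its partner chain in collagen I, fell by 1.15, from 6139 to 2761. COL5A1, the most abundant of these chains by count in WT, changed by -0.73 (edgeR adjusted p = 2.28e-06), from 49815 to 30078. The sum thus joins abundant chains that changed in opposite directions. COL2A1 and COL27A1 rose by 2.49 and 0.51, and COL11A1 fell by 0.89. COL5A3 had 172, 133 and 113 raw counts in the WT libraries, against 0, 2 and 0 in the NUAK2-CR libraries, at least 34.0-fold lower against a floor of 3 counts per library. Relative to the summed chains, the log2 ratio of SERPINH1 was 0.14 higher in NUAK2-CR (SE 0.09, exact permutation p = 0.3, adjusted 0.386) and that of the summed PLOD genes 0.05 higher (SE 0.09, exact permutation p = 0.9, adjusted 0.9), both with overlap between groups. The SERPINH1 ratio was 0.068 higher without WT replicate 1 and 0.22 higher without WT replicate 3. Of 6 basement membrane chains, substrates of LOXL2, 2 were higher and 2 lower. COL4A1 and COL4A2 fell by 0.29 and 0.47, COL4A5 and COL4A6 rose by 0.50 and 0.74, and COL4A3 and COL4A4 had 0.03 and -0.77 without passing. COL4A4 passed in edgeR without WT replicate 1 (-0.98, adjusted p = 0.0394) and without NUAK2-CR replicate 3 (-1.19, adjusted p = 0.0318).

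**Figure D5:**
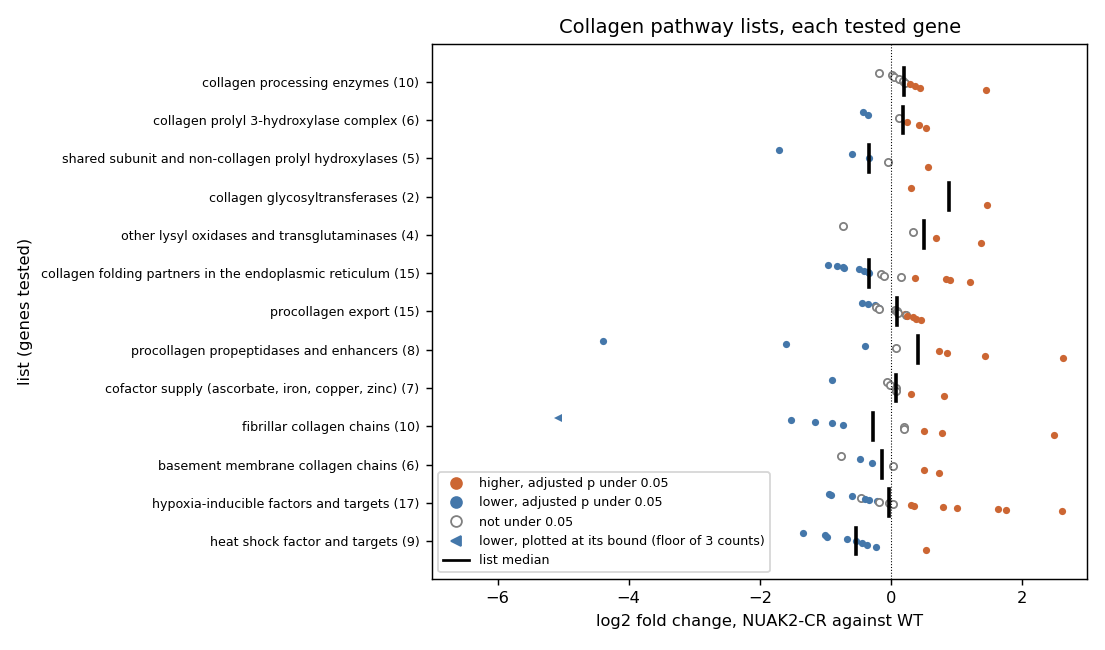
Log2 fold change in NUAK2-CR against WT (x axis) of each tested gene in 13 lists (the 10 enzymes and 12 lists of partners, substrates and regulators, tested genes in parentheses), filled where the edgeR adjusted p was under 0.05, with a black line at each list median. COL5A3 is drawn as a triangle at its bound, and the enzymes other than LOXL1 lie between -0.18 and 0.45.

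Lists for the 2 regulators whose motifs are shown above were read beside the enzymes. Of 18 hypoxia-inducible factors and targets, 17 were tested, 7 were higher and 6 lower, with a median log2 fold change of -0.02. Among all tested genes, 26.3% were higher and 28.2% lower. The factor EPAS1 and the targets CA12 and ADM rose by 1.63, 2.61 and 1.76 on the log2 scale. The glucose transporter SLC2A1, PFKFB4 and BNIP3 fell by 0.94, 0.91 and 0.59. The factors HIF1A and ARNT changed by -0.21 and -0.39 (edgeR adjusted p = 0.0396 and 0.000325). HIF1A had 37419 normalized counts in WT and 32343 in NUAK2-CR, against 946 and 2938 for EPAS1. Of the 3 enzymes with the ACGTG core, P4HA1 and LOX rose and PLOD2 did not pass. Heat shock genes were lower in 8 and higher in 1 of the 9 tested of 11 (median -0.53), beside the same shares of all tested genes. The chaperones HSPH1 and HSP90AA1 and the cochaperone BAG3 fell by 1.34, 0.97 and 1.01, HSF1 itself rose by 0.54, and SERPINH1, with its heat shock element, had 0.13. A second hypoxia core, GCGTG, lay in the windows of PLOD1 and PLOD2 and in 32.2% of all windows, and the TEAD core GGAATG lay in 0 of the 8 windows and in 11.9% of all. A match of this kind is a description of the letters and not of a bound site. The distances are from RefSeq starts. GENCODE v44 places the upstream ends farther out, at 73096974 for P4HA1, 146163725 for PLOD2, 122078413 for LOX and 75562056 for SERPINH1. By those ends, the stretches shown lie within the genes, except the LOX stretch 185 bases before the RefSeq start.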

How the data were processed

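RNA was isolated with TRIzol from U251 cells, and polyadenylated RNA was made into libraries with a stranded mRNA kit and sequenced as paired ends. The authors used Trimmomatic for trimming, HISAT2 for alignment to hg38 and featureCounts for the raw counts per gene that were deposited. Default parameters are stated for the counting, without a named gene annotation or strand setting. Rows carry NCBI gene identifiers, of which 27745 of 28395 matched a symbol. Groups came from the genotype labels.

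Counts were analysed in R 4.3.3 with edgeR 4.0.16 (filterByExpr, TMM, glmQLFit, glmQLFTest) over all 6 libraries, and p-values were adjusted by Benjamini-Hochberg over all 14873 tested genes. Normalized counts are counts divided by the effective library size and multiplied by the mean of those sizes. Standard errors were derived from the log2 fold change and the square root of F. A floor of 3 counts per library was used for a group at or near 0, which covers counting error only. Lengths per kb are those of canonical GENCODE v44 transcripts, and gene coordinates and promoters are RefSeq's on GRCh38. Ratios used a pseudocount of 0.5 and exact two-sided permutation tests over libraries. Replicates of a group differed beyond sampling noise, with a chi-square per gene of 6.37 to 56.0. The common biological coefficient of variation was 0.101. The pipeline was tested on simulated counts. Tables were made with pandas 2.3.3 in Python 3.11.15, and figures with matplotlib 3.10.9.

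The 10 genes, the lists and the markers were chosen with earlier results of these data known. Named genes are the 10, NUAK2, genes that overlap one of the 10, every gene of lists with 8 or fewer, and in longer lists at most the 3 highest and 3 lowest that passed and averaged 100 or more normalized counts in the higher group. COL5A1, HIF1A, ARNT and the markers were named besides these, and their alternative fits are not given. The nearest profiles were taken for the 3 largest changes. EGLN2, HSPA1A and HSPA1B had too few counts to be tested, and whether near-identical or overlapping genes took part of their reads was not examined. Alternatives were DESeq2 1.42.0, other scalings, filters, prior counts and pseudocounts, thinning to 29648445 counts, a replicate block, subtraction of the median of the 100 nearest tested genes (relative to that of all tested genes) and each library left out in turn.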

Additional observations from a re-analysis of the deposited data

How the results depend on the processing

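P4HA1, PLOD3, LOX and LOXL1 passed in every alternative fit without a fold threshold, and 1 and 0 of the 10 genes passed with an absolute log2 fold change over 1 and 2. The count was 5 with DESeq2 and with library-size scaling, where PLOD1 also passed (0.19, adjusted p = 0.0410 and 0.0499), and ran from 4 to 6 with each library left out. Leaving out WT replicate 1 made PLOD2 pass (-0.30), and leaving out WT replicate 3 made PLOD1 (0.26, edgeR adjusted p = 0.0255) and SERPINH1 (0.21, edgeR adjusted p = 0.0427) pass. Log2 fold changes with each library left out ran from -0.020 to 0.063 for P4HA2, -0.052 to 0.53 for P4HA3, 0.11 to 0.26 for PLOD1, -0.30 to -0.091 for PLOD2, -0.00249 to 0.10 for LOXL2 and 0.064 to 0.21 for SERPINH1, and those of the ratios from -0.54 to 0.25 for P4HA3 to P4HA1 -0.036 to 0.11 for the PLOD sum to the fibrillar chains and 0.068 to 0.22 for SERPINH1 to the fibrillar chains. Less the median of the 100 nearest tested genes, itself taken relative to the median of all tested genes, values were 0.16 for P4HA2, 0.48 for PLOD1, 0.17 for PLOD3, 0.50 for LOX, -0.085 for LOXL2, 0.019 for SERPINH1 and -0.50 for NUAK2. Genes near 0 that changed sign with a library left out were HIF1AN (-0.078 to 0.015), ADAMTS3 (-0.044 to 0.20), ATP7A (-0.15 to 0.059), SLC39A13 (-0.044 to 0.026), TFRC (-0.019 to 0.14) and COL4A3 (-0.37 to 0.40), and after thinning ADAMTS3 had -0.019 and COL4A3 -0.037. P3H2, SEC13 and SLC39A14 lost their call in 6, 3 and 1 alternatives, and COL4A4 (-1.19 to -0.46), TGM1 (-1.59 to -0.29) and LOXL3 (0.22 to 0.40) moved by over 1.5 times with a library left out, COL4A4 passing in 2 of these. The causes were not tested. Same-numbered libraries did not deviate together (correlations of 0.04, -0.04 and 0.05), and with the replicate block 4 of the 10 genes passed, COL4A3 turned to -0.068, and 8167 genes passed in all against 8107. P4HA3 had 11 to 44 counts, and the parts of depth and of variation between libraries in its spread were not tested.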
